A study of Mus musculus with 12 samples.

Results

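Tc1-mariner elements are DNA transposons, and their RNA was followed here through an anti-ORF1p immunoprecipitation from mouse testis. The loci were taken by annotation: every locus in the repeat class DNA whose family name begins with TcMar, which gave 8159 of 781637 repeat loci, and the 58 of 1528 repeat subfamilies to which those loci belong. The deposited tables hold 8226 entries for them because the 67 MamRep137 loci are entered under both TcMar-Tigger and an unresolved TcMar family. Each of those loci was counted once.

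The study asked which RNAs accompany ORF1p, the RNA-binding protein encoded by the LINE-1 (L1) retrotransposon, in large complexes of testis extracts treated with EDTA, which takes ribosomes apart. All 12 libraries came from testes of Mael-/- mice on the C57BL/6 strain at 3 months of age, which lack Maelstrom, a protein of the piRNA pathway that silences transposons in germ cells. No library of another genotype entered the comparisons. TOTAL was the clarified testis extract in 10 mM EDTA, INPUT the pool of sucrose gradient fractions 5 to 8 of that extract, BO the material that INPUT left on beads carrying no antibody, and IP the material that INPUT left on beads carrying an anti-ORF1p antibody. Each group held 3 libraries, described by the submitters as biological replicates, and the labels do not say how many animals stand behind each.

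DNA transposons of the Tc1-mariner superfamily move by cut and paste. An intact copy encodes a transposase, which recognises the inverted repeats at both ends of the element, excises it and inserts it at a TA dinucleotide, with no RNA intermediate that is copied back into DNA. In mammals these elements are fossils: the Tigger, Kanga (Tc2) and mariner copies are old, mostly truncated, and no longer mobile, and many short ones are non-autonomous derivatives that never held a transposase gene. Their sequences are therefore mostly transcribed as pieces of other transcripts, within introns, untranslated regions or long non-coding RNAs. L1 ORF1p, by contrast, is part of a copy-and-paste machinery with a strong preference for the L1 RNA that encodes it. The deposited tables name each locus by its subfamily and a copy number and give no coordinates, so whether a locus lies in an exon, an intron or between genes was not determined here, and no sequence of a locus is shown.

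The TcMar-Tigger family held most of the loci, 7351 in 41 subfamilies, followed by TcMar-Tc2 with 367 loci in 8 subfamilies and TcMar-Mariner with 265 loci in 3. The unresolved TcMar? family held 92 loci in 2 subfamilies, the plain TcMar family 16 in 2, and TcMar-Pogo a single locus, MER132. The copy numbers in the locus names run up to a summed 38657 over the subfamilies, of which the listed loci are 21.1%. Values of 2 kinds exist for these elements. The first is an upper-quartile normalized count per subfamily and library, in which reads that map to several places had been reassigned and summed over copies. The second is the authors' mean of normalized counts per locus and group, without values per library, so that loci carry no SD and no test here.

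Whole reads could be recovered from the subfamily values, and Tc1-mariner subfamilies drew 9831 to 32426 reads per library. They made up 0.940 to 0.961% of all reads on LINE, SINE, LTR and DNA elements in TOTAL, 0.963 to 0.976% in INPUT, 1.06 to 1.09% in BO and 0.820 to 0.982% in IP. The share in the 3 BO libraries was thus above that in each of the 9 others, and IP replicate 1 was the lowest of the 12. Reads on all repeats ranged from 1384904 to 7282171 per library, with 1384904 to 2003193 in IP. In BO replicate 3, 52.1% of repeat reads fell on large subunit ribosomal RNA against at most 15.9% elsewhere, and 7SL RNA took 38.1 to 51.6% in TOTAL against at most 18.7% in the other groups. Counts of subfamilies compared with BO or between BO and INPUT, and single subfamilies where stated, are also given without BO replicate 3. Counts given without 1 library have no share of all subfamilies for the same omission beside them. Their changes cannot be read as particular to Tc1-mariner. Locus means pool the libraries of a group and cannot be given without that library. Mael, the gene deleted in these mice, had authors' means of 0.65 in TOTAL, 0.502 in BO and 0 in INPUT and IP. The tissue label was checked on TOTAL: all 6 spermatocyte markers lay between 143 and 13894, the 5 spermatogonial markers between 92.6 and 2506, and the 5 Sertoli and 4 Leydig cell markers between 1527 and 29894, while the 4 spermatid markers were low, at 11.7 to 30.1. Neither of the 2 blood markers is listed.

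MER2 and Tigger7 had the highest levels. MER2, a short non-autonomous Tigger derivative with 2005 listed loci, had normalized counts of 3581, 3284 and 3380 in TOTAL, 3917, 3828 and 3613 in INPUT, 3913, 4131 and 3792 in BO, and 2773, 3150 and 3479 in IP. Tigger7, with 1141 loci, was second at 2222, 2124 and 2165 in TOTAL, 2209, 2156 and 2137 in INPUT, 2599, 2805 and 2399 in BO, and 1669, 1836 and 2080 in IP. For both, every IP library lay below every BO library. The pair supplied 30.7 to 35.6% of the summed Tc1-mariner signal in each library. After MER2 and Tigger7, 33 subfamilies averaged at least 100 over the 12 libraries, 19 lay between 10 and 100, and 4 below 10 (Eulor8, MER47C, MamRep1161 and MER132), which were not tested. Across the 54 tested subfamilies the mean level followed the number of listed loci (Spearman's rho 0.90), a description in which all points share the same libraries and no element length is taken into account.

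Summed over all subfamilies, the normalized counts were 15760 to 16807 in TOTAL, 16590 to 17755 in INPUT, 19692 to 21188 in BO and 14460 to 16214 in IP. On this upper-quartile scale the BO libraries were above all others, every IP library lay below every INPUT library, and IP overlapped TOTAL. The order depends on the scaling. As a share of reads on all repeats, every IP library (0.710 to 0.830%) lay above every INPUT library (0.566 to 0.621%). By that measure BO ranged from 0.438 to 0.951% and TOTAL from 0.239 to 0.373%. TcMar-Tigger supplied 84.1 to 87.9% of each library's sum, TcMar-Tc2 5.85 to 7.30% and TcMar-Mariner 4.88 to 7.14%.

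**Figure D1:**
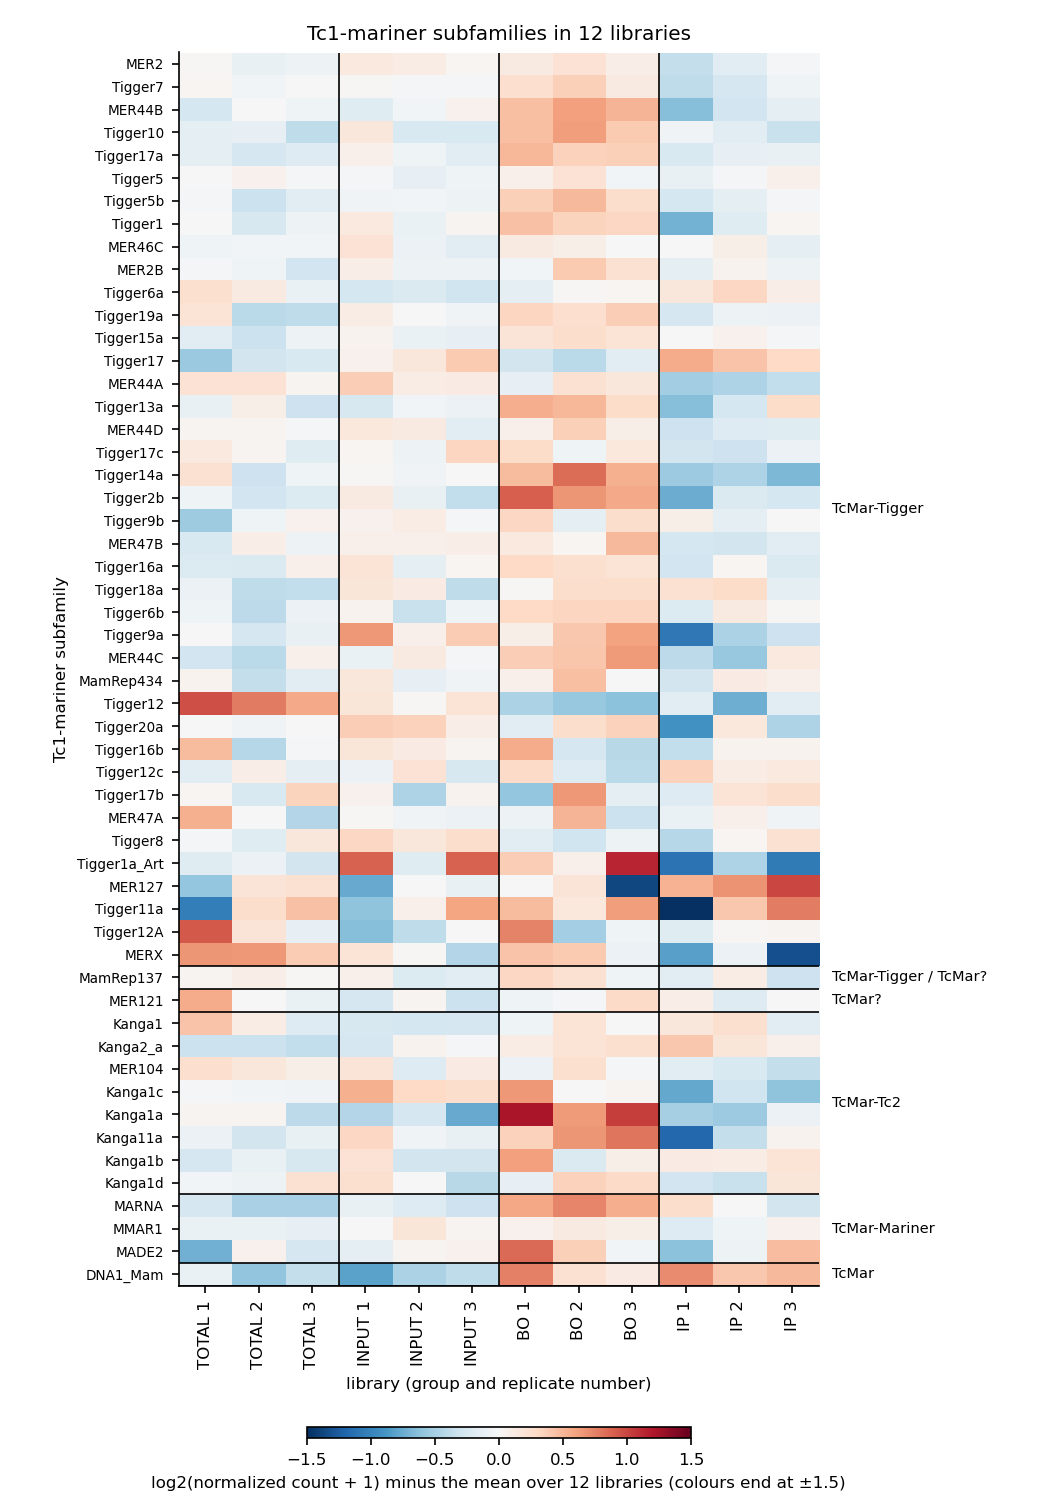
Normalized counts of the 54 tested Tc1-mariner subfamilies (rows, grouped by family and ordered by mean level) in the 12 libraries (columns), as log2(count + 1) minus the mean of each row over the libraries. The BO columns are the reddest block for many Tigger and Tc2 rows, while Tigger17 is highest in IP and Tigger12 in TOTAL.

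The comparison of IP with BO asks what the antibody retained beyond the bare beads, and here Tc1-mariner RNA lay on the low side. With a fold threshold of 1 on the log2 scale and an adjusted p below 0.05 (limma on log2 of the count plus 1, Benjamini-Hochberg adjusted over all 1180 subfamilies tested), 5 of 54 Tc1-mariner subfamilies were lower in IP than in BO and none was higher. Over all subfamilies, 3.81% were called lower and 5.08% higher by the same rule. The 0 higher became 1 with an unadjusted p below 0.05, 0 with edgeR and 1 with DESeq2, each on recovered reads, and edgeR and DESeq2 each called 3 lower. Without BO replicate 3, 6 were lower and 0 higher. Without IP replicate 1, the library with the lowest Tc1-mariner share, 3 were lower.

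Counting every adjusted p below 0.05 whatever the fold, 22 of the 54 subfamilies were lower in IP than in BO and 1 was higher, beside 23.2% lower and 11.3% higher over all subfamilies. Without BO replicate 3 the 22 became 20. The 22 were 18 of 41 Tigger subfamilies (MamRep137 included), 3 of 8 Tc2 and 1 of 3 Mariner subfamilies. In hAT elements, the other large superfamily of DNA transposons in these tables, 23 of 105 were lower and 6 higher. Of the 54, 44 had a log2 fold change below 0, beside 728 of 1180 over all subfamilies and 67 of 105 in hAT. The median of the 54 was -0.33, beside a median of -0.12 for all subfamilies and -0.12 for hAT. The direction of such medians depends on the scaling. When libraries were scaled to their total reads on repeats, which moved the median of all subfamilies to 0.36, the Tc1-mariner median became 0.16, and 2 were called higher and 0 lower, beside 10.6% and 1.44% of all subfamilies. Scaled by the median ratio, 1 was higher and 3 lower, beside 5.68% and 2.8%. Relative to the median of all subfamilies, the Tc1-mariner median was -0.21 in the main scaling, -0.20 with library totals and -0.21 with the median ratio.

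**Figure D2:**
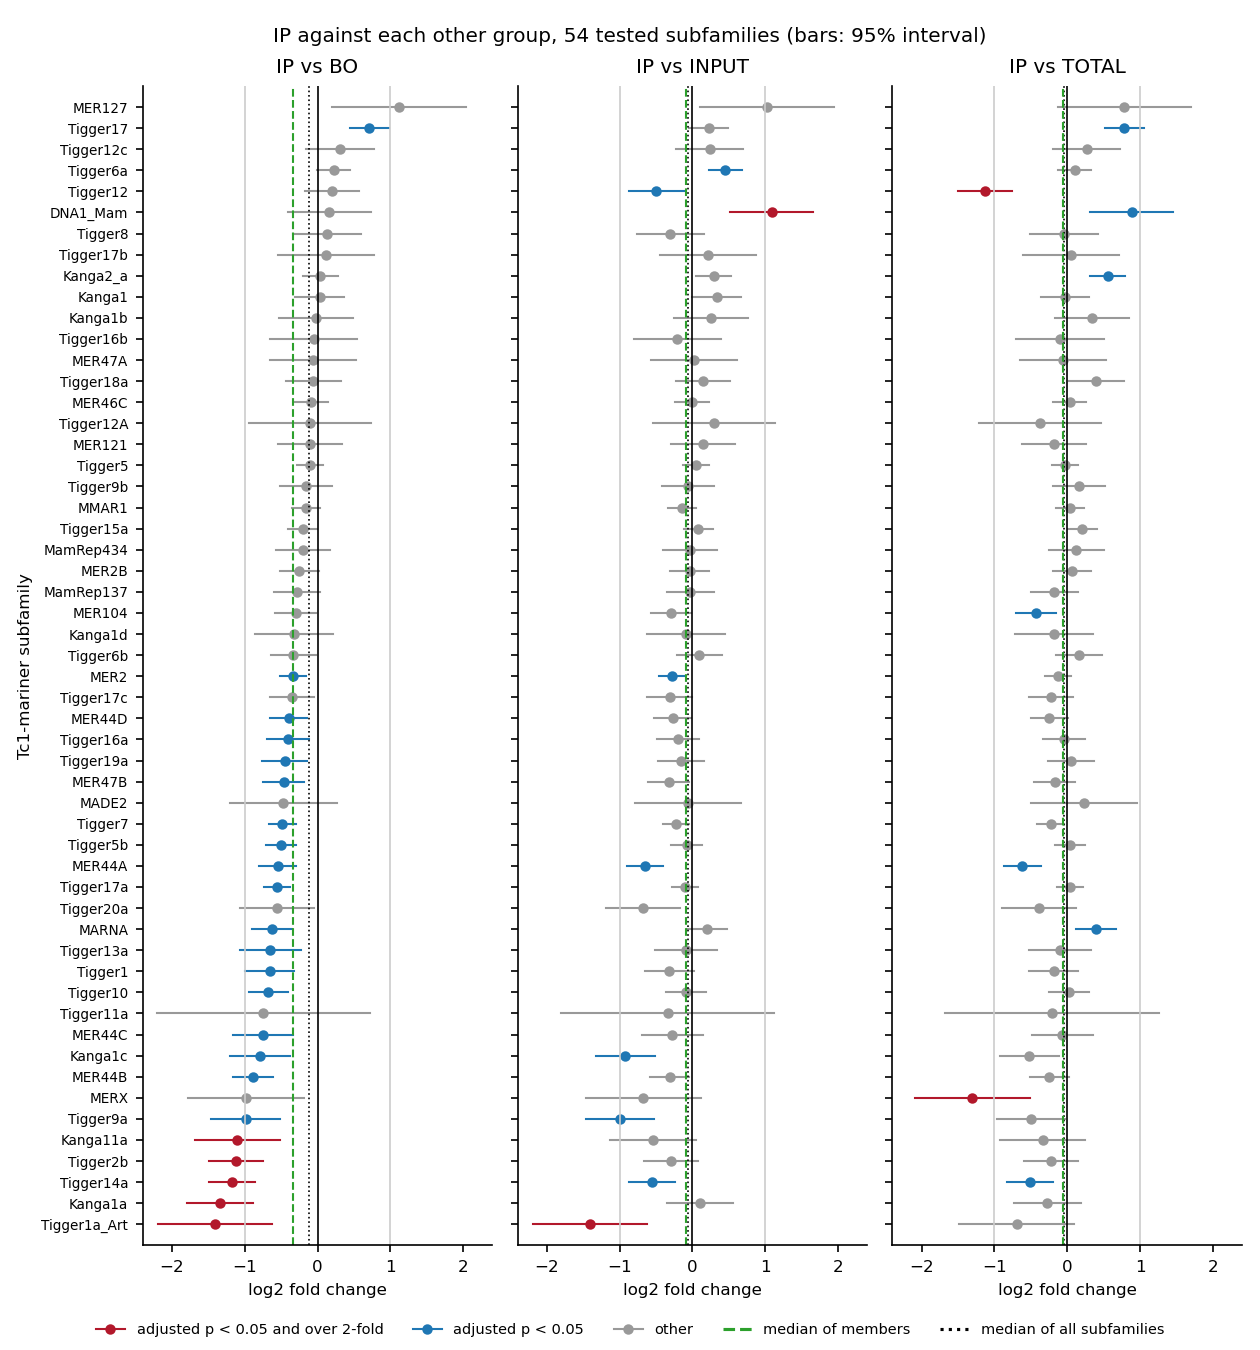
Log2 fold changes of the 54 tested subfamilies in IP against BO, INPUT and TOTAL, ordered by the first, with 95% intervals from the limma fit. In the panel for BO, 44 of 54 points lie left of 0 (728 of 1180 over all subfamilies) and 5 are red on the left. The members' median (green) and the median of all subfamilies (dotted) nearly coincide in the other panels. With library totals as scaling the members' median against BO is positive, at 0.16.

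The 5 subfamilies called lower came from both main families. Tigger14a had 247, 320 and 258 in BO and 122, 129 and 111 in IP, with 210, 144 and 170 in TOTAL and 180, 172 and 178 in INPUT. Its IP libraries were below all 9 others, and the log2 fold change against BO was -1.17 (SE 0.15, adjusted p = 7.7e-05, limma). Tigger2b had 323, 276 and 258 in BO and 103, 149 and 144 in IP (log2 fold change -1.12, SE 0.17, adjusted p = 0.00032, limma), and its BO libraries stood above all others, since TOTAL (142 to 166) and INPUT (134 to 191) lay near IP. Its log2 fold change was just short of the threshold with edgeR (-0.99), DESeq2 (-0.998) and the median ratio (-0.999), and at -0.95 without IP replicate 1. Tigger1a_Art, a low subfamily with 9 loci and 7 to 13 recovered reads in each IP library, had 30.5, 24.7 and 52.9 in BO and 10.3, 16.6 and 10.7 in IP (log2 fold change -1.41, SE 0.36, adjusted p = 0.0094, limma). Without BO replicate 3, which held its highest value, the log2 fold change was -1.10, and with a pseudocount of 10 it was -0.99.

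The others were Kanga elements of the Tc2 family. Kanga1a had 181, 121 and 159 in BO and 54.4, 52.5 and 72.2 in IP, a log2 fold change of -1.34 (SE 0.21, adjusted p = 0.00041, limma), with TOTAL at 58.5 to 79.2 and INPUT at 45.4 to 64.5. Kanga11a had 77.9, 97.6 and 107 in BO and 26.5, 47.4 and 63.4 in IP (log2 fold change -1.10, SE 0.27, adjusted p = 0.0073, limma). Its IP libraries spread widely, and its log2 fold change was short of the threshold without IP replicate 1 (-0.76), with edgeR (-0.87), DESeq2 (-0.88), the median ratio (-0.98) and a pseudocount of 10 (-0.95). Without BO replicate 3, which held its highest BO value, Kanga11a was at -1.001 (adjusted p = 0.029, limma). With library totals as scaling all 5 kept a negative log2 fold change, between -0.95 and -0.62, and none was called.

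Several abundant subfamilies were lower in IP than in BO by less than the fold threshold. MER44B, another non-autonomous Tigger derivative, had 1043, 1167 and 1086 in BO and 488, 624 and 687 in IP (log2 fold change -0.89, SE 0.12, adjusted p = 0.00019, limma). Tigger10 had 989, 1116 and 951 in BO and 697, 645 and 574 in IP (log2 fold change -0.67, SE 0.12, adjusted p = 0.0013, limma). For both, the groups did not overlap. Tigger17a, Tigger5b, Tigger1 and Tigger7 followed at -0.55, -0.50, -0.65 and -0.49, each with an adjusted p of at most 0.0059 in limma. For MER2 the log2 fold change was -0.34 (SE 0.08, adjusted p = 0.0073, limma). With library totals as scaling the sign of MER2 (0.16) and Tigger7 (0.010) turned, and MER44B, Tigger10, Tigger17a, Tigger5b and Tigger1 were between -0.39 and -0.0094 with no adjusted p below 0.05. Tigger5 and MER46C, also among the 10 most abundant, did not pass, with log2 fold changes of -0.10 (95% interval -0.29 to 0.08) and -0.09 (95% interval -0.32 to 0.14).

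MARNA, the ancient mammalian mariner, had 884, 986 and 863 in BO against 496, 424 and 423 in TOTAL, 549, 517 and 476 in INPUT, and 707, 590 and 487 in IP. The BO libraries were above the other 9, and IP overlapped INPUT. The log2 fold change of IP against BO was -0.63 (SE 0.13, adjusted p = 0.0022, limma). With library totals as scaling it was -0.13 (adjusted p = 0.82, limma).

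One subfamily went the other way with an adjusted p below 0.05. Tigger17, with 66 loci, had 449, 407 and 375 in IP, 251, 229 and 269 in BO, 317, 341 and 398 in INPUT and 207, 251 and 259 in TOTAL. Every IP library exceeded every BO and TOTAL library, while IP and INPUT overlapped. The log2 fold change against BO was 0.71 (SE 0.12, adjusted p = 0.00084, limma), and it was positive under each alternative tried, from 0.65 without IP replicate 1 upward. MER127, at 4 to 38 reads per library, had the highest log2 fold change against BO, 1.12, with 26.5, 29.5 and 37.1 in IP against 18.1, 20.8 and 6.41 in BO, but its adjusted p was 0.058 in limma. Without BO replicate 3, which held the lowest of those values, its log2 fold change was 0.64, and adjusted p values below the threshold came from DESeq2 (0.036) and, in limma, from median-ratio scaling (0.043), a pseudocount of 10 (0.042, log2 fold change 0.75), library totals (0.033, log2 fold change 1.59) and leaving out BO replicate 2 (0.037, log2 fold change 1.42).

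**Figure D3:**
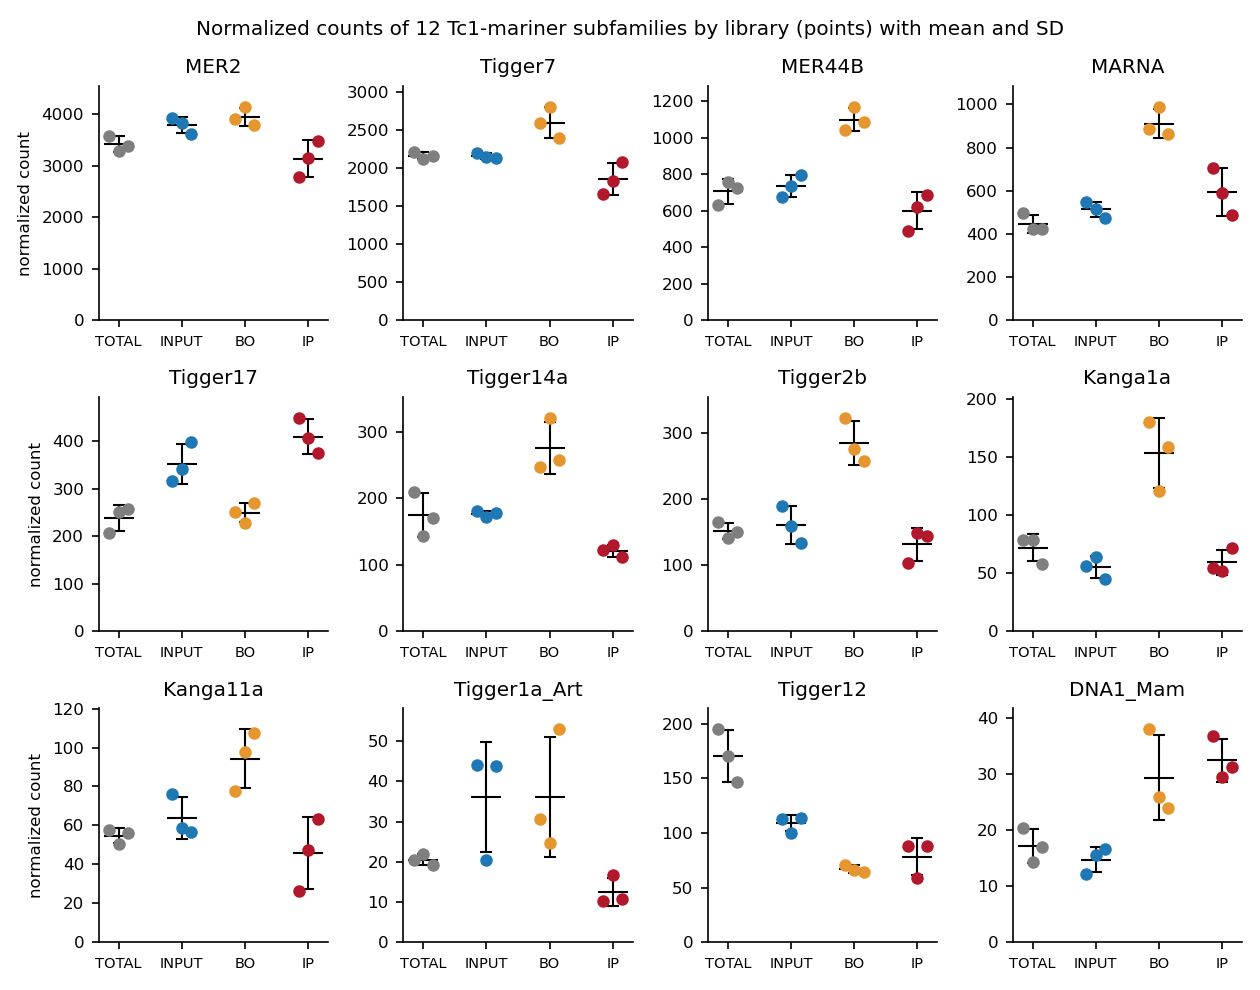
Normalized counts (vertical axes, starting at 0) of 12 Tc1-mariner subfamilies in each library (points), with the mean and SD of the 3 libraries of a group. Tigger14a, Tigger2b, Kanga1a and Kanga11a peak in BO, Tigger12 declines from TOTAL to INPUT to the bead samples, and Tigger17 is highest in IP.

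Against INPUT, the material from which both bead samples were drawn, Tc1-mariner RNA in IP was close to the level of other repeats. Of 54 subfamilies, 1 was called higher and 1 lower (beside 3.22% and 2.88% of all subfamilies), and with an adjusted p below 0.05 alone 2 were higher and 7 lower (beside 11% and 16.7%). The 7 became 4 without INPUT replicate 1 and 11 without IP replicate 3, and the 1 called lower became 0 without INPUT replicate 1 or 3 and 3 without IP replicate 2. The shares of all subfamilies above belong to the full set of libraries, so these changes cannot be read as particular to Tc1-mariner. Scaled to library totals, with an adjusted p below 0.05 alone 3 were higher and 0 lower, beside 12.5% and 1.61% of all subfamilies. The median log2 fold change was -0.09, against -0.06 for all subfamilies. The higher one was DNA1_Mam, an old element of the plain TcMar family, with 36.8, 29.5 and 31.2 in IP and 12.2, 15.5 and 16.6 in INPUT (log2 fold change 1.09, SE 0.26, adjusted p = 0.0088, limma). It did not differ from BO, where it had 38.0, 26.0 and 24.1 (log2 fold change 0.16, 95% interval -0.41 to 0.73). It rested on 13 to 61 reads per library, and without IP replicate 1 its log2 fold change was 0.999, just short of the threshold, as it was without INPUT replicate 1, at 0.97. With a pseudocount of 10 it was 0.78.

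The lower one was Tigger1a_Art, with 44.2, 20.4 and 43.8 in INPUT against the IP values above (log2 fold change -1.40, SE 0.36, adjusted p = 0.013, limma). INPUT replicate 2 lay well below the other INPUT libraries, and the adjusted p in limma was 0.054 without INPUT replicate 1 and 0.056 without INPUT replicate 3. Tigger9a and Kanga1c came next, at -0.99 and -0.92 with adjusted p of 0.005 and 0.0033 in limma. For Tigger9a the IP values were 53.0, 80.7 and 90.7 and the INPUT values 178, 119 and 147, which did not overlap. MER44A was lower in IP than in each of the 3 other groups, with log2 fold changes of -0.54, -0.65 and -0.61 against BO, INPUT and TOTAL and adjusted p of 0.0031, 0.0014 and 0.0027 in limma. Scaled to library totals, 0 Tc1-mariner subfamilies were lower with an adjusted p below 0.05 in each of these comparisons, so MER44A did not pass there. The shares of all subfamilies were 1.44%, 1.61% and 1.44%. Tigger6a was the other subfamily that was higher than INPUT with an adjusted p below 0.05, at 0.45.

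Against TOTAL, 2 subfamilies were called lower and 0 higher (beside 3.47% and 2.88% of all subfamilies). The 0 was also 0 with an unadjusted p below 0.05, with edgeR and with DESeq2. Tigger12 had 195, 170 and 147 in TOTAL, 113, 100 and 114 in INPUT, 71.1, 66.4 and 64.1 in BO and 88.3, 58.9 and 87.8 in IP. Its log2 fold change of IP against TOTAL was -1.13 (SE 0.17, adjusted p = 0.0007, limma), whereas IP and BO overlapped (0.20, 95% interval -0.18 to 0.57). Its TOTAL libraries were above all others, and its INPUT libraries above all bead libraries. Without IP replicate 2 its log2 fold change was short of the threshold, at -0.94. MERX, with 5 to 10 reads in each IP library, had 22.3, 22.0 and 18.1 in TOTAL and 7.35, 12.8 and 4.88 in IP (log2 fold change -1.30, SE 0.36, adjusted p = 0.024, limma), and its adjusted p in limma was 0.061 without IP replicate 1, 0.072 without IP replicate 3, 0.070 without TOTAL replicate 1, 0.069 without TOTAL replicate 2 and 0.076 in the fit of these groups only. With a pseudocount of 10 its log2 fold change was -0.77. With library totals as scaling, under which the median of all subfamilies against TOTAL moved from -0.05 to 1.49, the log2 fold changes of Tigger12 and MERX were positive and 49 of the 54 were called higher, beside 85.7% of all subfamilies.

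With an adjusted p below 0.05 alone, 4 subfamilies were higher in IP than in TOTAL (beside 10.2% of all) and 5 lower (beside 12.5%). The 4 were DNA1_Mam at 0.88, Tigger17 at 0.78, Kanga2_a at 0.56 and MARNA at 0.40. Without IP replicate 1, MARNA was at 0.26 (adjusted p = 0.16, limma) and DNA1_Mam at 0.79 (adjusted p = 0.10, limma). The adjusted p of DNA1_Mam in limma was below 0.05 without TOTAL replicate 1 but not without any other of the 6 libraries, and that of MARNA only without TOTAL replicate 1 or IP replicate 3. The 5 were MERX, Tigger12, MER44A, Tigger14a and MER104, the last at -0.43. Without TOTAL replicate 1 or IP replicate 1, 2 were lower, and 3 were lower without TOTAL replicate 2, TOTAL replicate 3 or IP replicate 3. The adjusted p of Tigger14a in limma was 0.094 without TOTAL replicate 1, 0.057 without TOTAL replicate 3, 0.059 without IP replicate 1 and 0.073 without IP replicate 3. The higher count was 2 without TOTAL replicate 2, TOTAL replicate 3, IP replicate 1 or IP replicate 2. The comparisons against BO, INPUT and TOTAL use the same 3 IP libraries and are therefore not independent of one another.

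Between TOTAL and INPUT, no Tc1-mariner subfamily was called in either direction, beside 0% of all subfamilies called higher and 0.339% called lower (limma), and this was also so with an unadjusted p below 0.05, with edgeR and with DESeq2. With an adjusted p below 0.05 alone, 1 was higher and 0 lower, beside 0.847% and 0.847% of all subfamilies. Scaled by the median ratio, 0 were higher and 0 lower by this measure. The 1 was Tigger17, at a log2 fold change of 0.56 (adjusted p = 0.048, limma). That adjusted p was below 0.05 without INPUT replicate 1 but not without any other of the 6 libraries, and reached 0.17 without INPUT replicate 3. The median log2 fold change of the 54 was 0.10, and 0.03 for all subfamilies. Replicate numbers paired the INPUT and TOTAL libraries in the data, and with the replicate number as a block the counts remained 0 and 0. Scaled to library totals, under which the median of all subfamilies was 1.03, 37 were called higher, beside 53.7% of all subfamilies.

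Bare beads were also compared with the INPUT they were incubated in. Kanga1a was the 1 called higher in BO than in INPUT (log2 fold change 1.45, SE 0.21, adjusted p = 0.00043, limma), beside 2.63% of all subfamilies, and none was called lower, beside 2.8%. The 0 lower was also 0 with an unadjusted p below 0.05, with edgeR and with DESeq2. With an adjusted p below 0.05 alone, 13 of 54 were higher in BO than in INPUT and 2 lower, beside 17.2% and 11.7% of all subfamilies. The median log2 fold change was 0.23, against 0.03 for all subfamilies and 0.07 for hAT. Above 0 were 44 of 54, beside 634 of 1180 over all subfamilies and 65 of 105 in hAT. Tigger2b stood at 0.83, MARNA at 0.82, Tigger10 at 0.59 and MER44B at 0.58, all with an adjusted p of at most 0.0042 in limma. The 2 lower were Tigger12 (-0.69) and Tigger17 (-0.49). Scaled to library totals, 1 was higher and 0 lower by this measure, beside 1.69% and 1.78% of all subfamilies, and the adjusted p in limma was 0.18 for Tigger2b, 0.17 for MARNA, 0.40 for Tigger10 and 0.39 for MER44B. Without BO replicate 3, Kanga1a remained at 1.41, 2 were called higher, and with an adjusted p below 0.05 alone 11 were higher and 2 lower. Without INPUT replicate 3, 2 were called higher, and with an adjusted p below 0.05 alone 9 were higher and 1 lower. Without BO replicate 1, 8 were higher and 2 lower by the same measure.

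Single loci showed how unevenly this signal was spread. Of the 8159 loci, 3548 (43.5%) had an authors' mean above 0 in BO, 4376 (53.6%) in INPUT, 4270 (52.3%) in TOTAL and 4192 (51.4%) in IP. 1578 loci were above 0 in all 4 groups and 487 were at 0 in all of them. Means of at least 10 were reached by 142 loci in BO, 105 in INPUT and 76 in TOTAL, and by 35 to 65 in IP depending on the table, because the authors scaled each table on its own. In BO, 10 loci held 15.01% of the summed mean of all Tc1-mariner loci, against 14.6 to 14.7% in IP, 10.8% in INPUT and 8.76% in TOTAL. These tables carry a separate entry for multimapping reads, so near-identical copies can be undercounted, and locus means and subfamily counts are on different scales.

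Ratios of locus means were taken as log2 of the IP mean plus 0.5 over the other group's mean plus 0.5, for loci whose 2 means averaged at least 10. Against BO, 58 of 79 loci lay past 2-fold lower in IP and 3 past 2-fold higher, while 48.4% of all 5552 repeat loci that passed the minimum were lower and 17.5% higher. The median ratio was -1.82 for Tc1-mariner loci, -0.93 for all repeat loci and -1.24 for hAT loci. Against INPUT, 28 of 75 were lower and 7 higher, beside 31.8% and 22.6% of all repeat loci. Against TOTAL, 17 of 65 were lower and 11 higher, beside 25.1% and 24.8%. The medians there were -0.63 and -0.19, against -0.26 and 0.01 for all repeat loci. When ratios were centred on the median repeat locus, the counts against BO became 34 lower and 8 higher, beside 26.9% and 30.5% of all repeat loci. These are values of group means with no replicate check. The lowest ratio against BO was that of MER2_3129, with 33.9 in BO and 0.821 in IP (-4.70), named after its value was seen. Of the 79 loci, 50 reached the minimum through BO alone, which accounts for 46 of the 58 lower ones, and 4 through IP alone, with 2 of the 3 higher ones. Of the 25 with both means at the minimum, 12 were lower and 1 was higher, beside 29.6% and 13.5% of the 2483 repeat loci of that kind. Against INPUT, 27 loci passed through INPUT alone, with 23 of the 28 lower ones, and 8 through IP alone, with 5 of the 7 higher ones, which left 5 lower and 2 higher among the 40 with both means at the minimum, beside 17.2% and 14.8% of all such repeat loci. Against TOTAL, 18 passed through TOTAL alone, with 13 of the 17 lower ones, and 11 through IP alone, with 7 of the 11 higher ones, which left 4 lower and 4 higher among 36, beside 12.4% and 15.6%. Loci that pass through 1 group alone lie toward that group by construction.

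**Figure D4:**
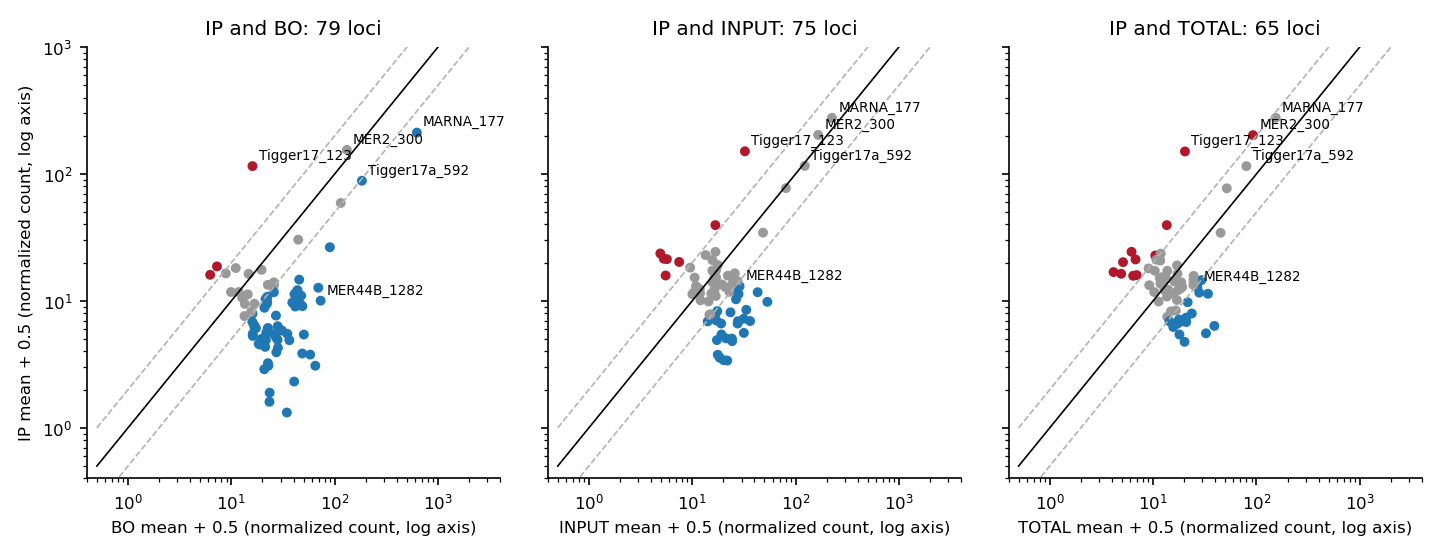
Authors' means (plus 0.5, log axes) of Tc1-mariner loci in IP against BO, INPUT and TOTAL, for loci whose 2 means averaged at least 10. The solid line marks equal means and the dashed lines 2-fold differences, with loci past 2-fold in red (higher in IP) or blue (lower). In the panel for BO, 58 of 79 loci are blue and MARNA_177 is the rightmost point, and Tigger17_123 is red in each panel.

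MARNA_177 had the highest mean of any Tc1-mariner locus in each group. Its means were 624 in BO, 224 in INPUT and 153 in TOTAL, with IP at 211, 276 and 276 in the respective tables. The log2 ratios of IP were -1.56 against BO, 0.30 against INPUT and 0.85 against TOTAL. It alone made up 6.44% of the summed BO mean of all Tc1-mariner loci and 82.0% of the BO sum of the 138 MARNA loci. The other MARNA loci summed to 137 in BO and 64.2 in IP, a log2 ratio of -1.09, beside -1.46 for all MARNA loci. MARNA_177 was picked for a mean that was mostly that of BO, so leaving it out moves the rest toward IP by construction. The median of -0.93 for all repeat loci against BO is taken over single loci above the minimum and not over sums.

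Tigger17_123 stood apart in the opposite direction. Its mean was 15.5 in BO, 31.8 in INPUT and 19.8 in TOTAL, and 115, 150 and 150 in IP, giving log2 ratios of 2.85, 2.22 and 2.89. This was the highest ratio against BO among the 79 loci, and the next highest were 1.37 (Tigger17c_31) and 1.36 (Tigger6b_60), both named after their values were seen. It held 84.2% of the IP sum of the 66 Tigger17 loci. Without it, the other Tigger17 loci summed to 31.8 in BO and 21.6 in IP, a log2 ratio of -0.55, and the sums were also lower in IP against INPUT (-0.53) and TOTAL (-0.74). As the locus left out was picked for a mean that was mostly that of IP, the rest moves away from IP by construction. The ratio of the rest against BO lay above the median of -0.93 for all repeat loci. That median is taken over single loci above the minimum and not over sums, so the values are unlike measures. The listed Tigger17 loci summed to 19.0% of the subfamily count in BO and 33.2% in IP, on scales that differ.

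Other abundant loci lay nearer to one another. MER2_300, the leading MER2 copy, had 131 in BO and 154 in IP, 165 and 202 against INPUT, and 92.1 and 202 against TOTAL, for log2 ratios of 0.24, 0.29 and 1.13. All other MER2 loci together summed to 2073 in BO and 1028 in IP, a log2 ratio of -1.01, beside -0.90 with MER2_300 included. As MER2_300 was higher in IP than in BO, leaving it out moves the rest away from IP by construction. Tigger17a_592 had 183 in BO and 87.9 in IP, a log2 ratio of -1.05, with -0.09 against INPUT and 0.53 against TOTAL. Kanga2_a_257 had 114 in BO and 58.6 in IP, with log2 ratios of -0.95, -0.06 and 0.58. Both followed the same order as MARNA_177, lowest against BO and highest against TOTAL. That order is not particular to these loci. The medians of all repeat loci followed it too, at -0.93, -0.26 and 0.01, as did those of hAT loci, at -1.24, -0.62 and -0.24.

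MER44B_1282 and Kanga1c_18 were lower in IP than in each other group. MER44B_1282 had 72.7 in BO and 9.54 in IP (log2 ratio -2.87), 28.2 and 12.6 against INPUT (-1.14), and 26.3 and 12.4 against TOTAL (-1.05). Kanga1c_18 had 41.1 in BO and 8.53 in IP (-2.20), 42.5 and 11.2 against INPUT (-1.88), and 27.5 and 11.1 against TOTAL (-1.27). Tigger10_238 and Tigger15a_323 were lower against BO, at -2.45 and -1.76, and past 2-fold against neither INPUT (-0.65 and -0.49) nor TOTAL (-0.07 and -0.39). MER2_9254 was at -0.55 against BO and past 2-fold higher against INPUT (1.239) and TOTAL (1.54), with 43.9 in BO, 16.3 in INPUT, 13.1 in TOTAL and 29.9 to 39.0 in IP.

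For other subfamilies compared with BO, the leading locus is given as values only. It was picked for the highest average of both means, which against BO was mostly set by its BO mean, so leaving it out moves the rest toward IP by construction, and locus sums and subfamily counts come from different tables. Kanga1a_140 held 63.5% of the Kanga1a sum in BO, with 48.1 in BO and 3.35 in IP, and without it the log2 ratio of the subfamily's loci moved from -1.76 to -0.56. Tigger2b_52 had 64.4 in BO and 2.59 in IP, yet held 26.6% of the Tigger2b sum in BO, and the other Tigger2b loci still had a log2 ratio of -1.28. For Kanga11a the leading locus held 24.5% of the BO sum, and the rest had a log2 ratio of -1.02. The median of all repeat loci in this table, -0.93, lies near the last value, but it is taken over single loci above the minimum and not over sums. The ratios of sums have no replicate check. DNA1_Mam_19 held 80.4% of the DNA1_Mam sum in BO (22.9) and was at 1.104 in IP, whereas the other DNA1_Mam loci summed to 5.57 in BO and 12.3 in IP. The sum of all its loci was lower in IP (log2 ratio -1.06), while the subfamily counts of BO and IP overlapped. Against INPUT, DNA1_Mam_31 had 0 in INPUT and 8.10 in IP, 45.9% of the IP sum. Without it the log2 ratio of the DNA1_Mam loci moved from 1.40 to 0.55. Tigger9a_55 held 60.1% of the Tigger9a sum in INPUT, with 52.9 in INPUT and 9.33 in IP. Without it the log2 ratio moved from -1.22 to -0.31. Leaving out a locus picked mostly through 1 group moves the rest away from that group by construction.

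For Tigger14a the 2 kinds of values pointed in opposite directions. Its subfamily count was lower in IP than in BO (121 ± 9.12 against 275 ± 39.2, SD, n = 3 libraries each), while its 56 loci summed to 52.3 in IP and 36.7 in BO on the scale of the locus table, with Tigger14a_39 at 15.1 and 1.43. The part of these reads that was reassigned between copies is not given per locus. Tigger12 gave the same direction in both, with locus sums of 88.3 in TOTAL and 28.3 in IP (log2 ratio -1.62).

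**Figure D5:**
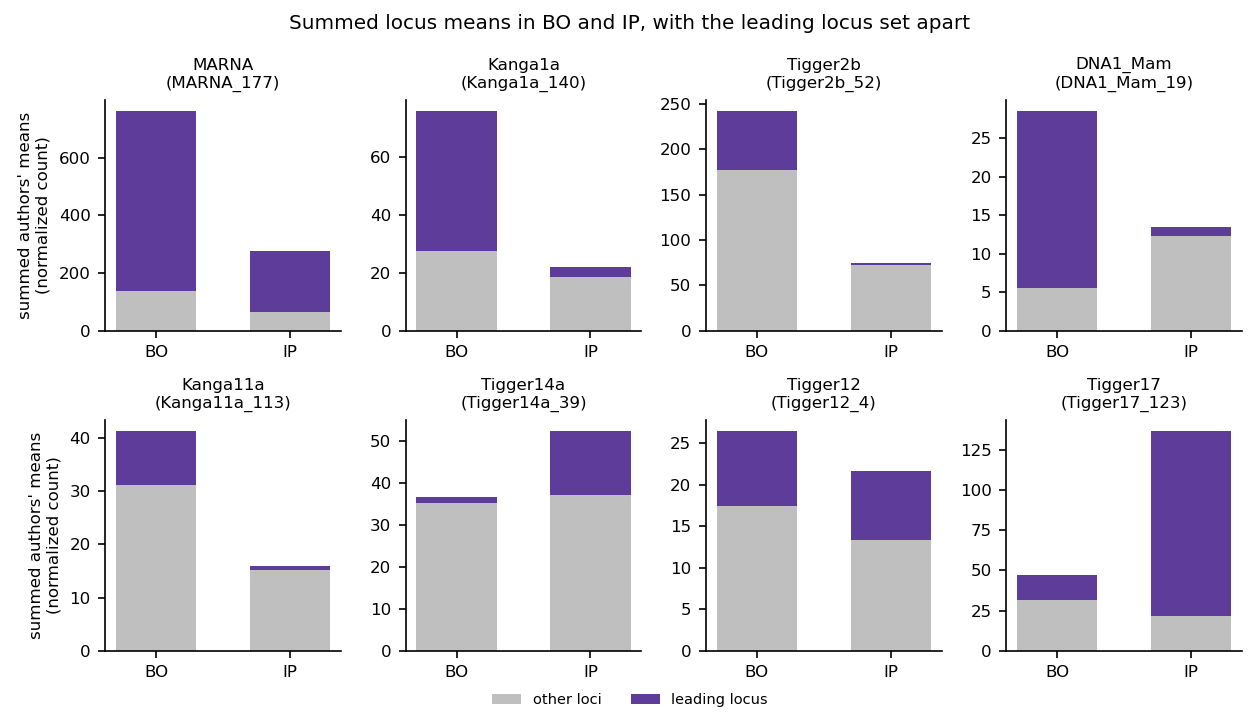
Summed authors' means of the loci of 8 Tc1-mariner subfamilies in BO and IP, both from the table that compares these groups, split into the leading locus (purple, the one with the highest average of both means) and all other loci (grey). MARNA_177, Kanga1a_140 and DNA1_Mam_19 make up most of their BO bars, and Tigger17_123 most of its IP bar. No error is drawn because the tables hold group means.

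Mammals have retained several genes that descend from pogo and Tigger transposases, and their mRNAs were read from the same tables as a separate list of 9 genes (Cenpb, Jrk, Jrkl, Pogk, Pogz, Tigd2, Tigd3, Tigd4 and Tigd5). Cenpb encodes a centromere protein that binds the CENP-B box, and Pogz a zinc finger protein of heterochromatin. Of the 8 genes above the minimum of 10, 1 lay past 2-fold higher in IP than in BO, 1 against INPUT and 6 against TOTAL, and 0 lay past 2-fold lower in any of these. Over all genes, 44.1% were past 2-fold higher and 11.3% lower against BO, 20.6% and 14.8% against INPUT, and 20.5% and 26.3% against TOTAL. Pogz had 2334 in BO and 2602 in IP (log2 ratio 0.16), 1885 and 3408 against INPUT (0.85), and 1321 and 3402 against TOTAL (1.36). Tigd3 was the one past 2-fold against BO, with 58.3 in BO and 140 in IP (1.261), and Jrkl the one against INPUT, with 227 and 694 (1.61). Cenpb had 810 in BO, 1831 in INPUT and 2217 in TOTAL, with log2 ratios of 0.75, -0.03 and -0.32. Tigd4 was below the minimum in each table. The median log2 ratio of all genes against BO was 0.82, and 6 of the 8 genes lay below it.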

How the data were processed

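Libraries were stranded and rRNA-depleted. Repeat reads were aligned by the authors to the mm10 build (STAR 2.6.0c), reassigned among copies (Telescope), summed per subfamily and upper-quartile normalized (EBSeq). These values, and the locus and gene means in the authors' DESeq2 1.24.0 tables, are deposited as signal (normalized counts). The authors' columns of fold changes, standard errors, statistics and p-values were not used. Whether counting used strand is not given in the sources used here.

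Groups came from the labels. Members and lists were chosen with earlier results of these data known. Reads were recovered as whole multiples of the lowest step in each library (tolerance 0.1), and 99.9 to 100% of values came out whole. The 1180 subfamilies averaging 10 or more entered limma 3.58.1 (R 4.3.3), with a pseudocount of 1, a trend, and 1 fit of 4 groups. The script was tested on simulated data. P-values measure the spread between these libraries. The 4 entries without a locus or gene (21.6 to 37.1% of a column's sum) were left out.

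Named subfamilies were those called in any of 5 comparisons, the 10 with the highest mean, and the 2 highest and 2 lowest log2 fold changes of each IP comparison. Named loci were the 10 with the highest mean over the groups and the 3 highest and 3 lowest ratios of each table among loci with a mean of at least 50. Other names were added after their values were seen. Same-numbered INPUT and TOTAL libraries deviated together from their group means (r 0.32 to 0.63). Same-numbered INPUT and BO libraries had r from 0.0615 to 0.558. The lowest r of each remaining pair of groups was negative, between -0.142 and -0.0139. Depth limits are counting limits, and a subfamily at 0 reads could hold up to 3 reads. Alternatives were other filters, pseudocounts, scalings, edgeR 4.0.16, DESeq2 1.42.0 and leaving out each library.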

Additional observations from a re-analysis of the deposited data

How the results depend on the processing

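Over 105 comparisons of named subfamilies under 1671 alternatives, 1514 kept direction and side of the threshold for a call. With the sign kept, 29 lost a call and 42 gained one. The other 86 changed sign, 35 of them with library totals as scaling and 51 with other alternatives. Sign changes were counted first, so those with library totals that also gained or lost a call are among the 86. Outside library totals, none of the results that changed sign was called. Counts of Tc1-mariner subfamilies called past the fold, and then with an adjusted p alone, are given below, and the cause of their changes was not tested except where fewer subfamilies or loci entered by construction.

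Scaled to library totals, IP against BO gave 2 higher and 0 lower (adjusted p alone 2 and 0), IP against INPUT 2 and 0 (0 lower by adjusted p alone), IP against TOTAL 49 and 0 (50 and 0), INPUT against TOTAL 37 higher, and BO against INPUT 1 higher and 0 lower by adjusted p alone. Scaled to library totals, these log2 fold changes changed sign to the values given. For IP against BO they were MER2 0.16, Tigger7 0.010, Tigger5 0.39 and MER46C 0.41. For IP against INPUT they were Tigger2b 0.25, Tigger12 0.045, MER2 0.27, Tigger7 0.32, MER44B 0.24, Tigger10 0.46, Tigger17a 0.44, Tigger5b 0.47, Tigger1 0.23 and MER46C 0.54. For IP against TOTAL they were Tigger14a 1.02, Tigger2b 1.31, Tigger12 0.41, Kanga1a 1.25, Kanga11a 1.18, Tigger1a_Art 0.76, MERX 0.12, MER2 1.42, Tigger7 1.32, MER44B 1.30, Tigger5 1.51, Tigger1 1.36 and Tigger9a 1.03. For INPUT against TOTAL they were Tigger12 0.36, Kanga1a 0.61, DNA1_Mam 0.72, MERX 0.30, Tigger7 1.002, Tigger5 0.92 and MER127 0.70. For BO against INPUT it was Tigger9a, at 0.044.

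With the median ratio, the sign changed to Tigger5 0.017 and MER46C 0.034 for IP against BO, Tigger5b 0.0021 and MER46C 0.075 for IP against INPUT, Tigger5 0.018 for IP against TOTAL, Tigger1a_Art -0.036 for BO against INPUT. With edgeR, the sign changed to Tigger5 0.023 and MER46C 0.043 for IP against BO, MER46C 0.044 for IP against INPUT, Tigger5 0.0054 for IP against TOTAL, Tigger14a -0.0038 for INPUT against TOTAL, Tigger1a_Art -0.11 and MER2 -0.019 for BO against INPUT. With DESeq2, the sign changed to Tigger5 0.016 and MER46C 0.031 for IP against BO, Tigger5b 0.0056 and MER46C 0.070 for IP against INPUT, Tigger5 0.025 for IP against TOTAL, Tigger14a -0.017 for INPUT against TOTAL, Tigger1a_Art -0.071 and MER127 0.015 for BO against INPUT. With a pseudocount of 10, the sign changed to Tigger1a_Art -0.00052 for BO against INPUT. Leaving out 1 library at a time, these log2 fold changes took both signs. For IP against INPUT the range was Kanga1a from -0.037 to 0.22, Tigger10 from -0.15 to 0.045, Tigger5 from -0.0034 to 0.094 and MER46C from -0.083 to 0.11. For IP against TOTAL the range was Kanga11a from -0.61 to 0.0025, Tigger10 from -0.060 to 0.099, Tigger5 from -0.085 to 0.012, Tigger5b from -0.042 to 0.11, Tigger1 from -0.34 to 0.030 and MER46C from -0.018 to 0.092. For INPUT against TOTAL the range was Tigger14a from -0.094 to 0.18, Tigger2b from -0.056 to 0.20, Tigger7 from -0.017 to 0.015, MER44B from -0.017 to 0.12, Tigger10 from -0.022 to 0.18 and MER46C from -0.077 to 0.12. For BO against INPUT the range was Tigger1a_Art from -0.35 to 0.23, MER127 from -0.39 to 0.39 and Tigger9a from -0.15 to 0.13.

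For IP against BO, the median ratio gave 1 higher and 3 lower (3 higher by adjusted p alone), DESeq2 1 and 3 (3), edgeR 3 lower (2 higher by adjusted p alone), a pseudocount of 10 gave 3 lower (2 higher by adjusted p alone) and a mean of at least 100 gave 2 lower. For IP against INPUT, a mean of at least 100 gave 0 higher and 0 lower (1 higher by adjusted p alone), a pseudocount of 10 gave 0 and 0, a pseudocount of 0.1 gave 2 lower, the fit of the compared groups only 2 higher, and DESeq2 2 higher (4 by adjusted p alone). For IP against TOTAL, a mean of at least 100 gave 1 lower, a pseudocount of 10 gave 1 lower, and the compared groups only 1 lower (2 higher and 3 lower by adjusted p alone). For BO against INPUT, no filter gave 2 higher and a mean of at least 100 gave 0.

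The counts below without 1 library have no share of all subfamilies for the same omission beside them. Leaving out each library in turn, IP against BO gave 0 to 1 higher and 3 to 7 lower (1 to 2 and 18 to 22 by adjusted p alone). The 3 came without IP replicate 1, and the 1 higher without BO replicate 2. IP against INPUT gave 0 to 1 and 0 to 3 (2 to 3 and 4 to 11), with 0 higher without INPUT replicate 1 or IP replicate 1, 0 lower without INPUT replicate 1 or 3, 3 lower without IP replicate 2, 2 lower without INPUT replicate 2 or IP replicate 3, and by adjusted p alone 4 lower without INPUT replicate 1 and 11 without IP replicate 3. IP against TOTAL gave 0 to 1 and 1 to 2 (2 to 4 and 2 to 5), with 1 higher without TOTAL replicate 1, and 1 lower without TOTAL replicate 1 or 2 or any 1 of the IP libraries. By adjusted p alone, 2 were higher without TOTAL replicate 2 or 3 or IP replicate 1 or 2, 2 lower without TOTAL replicate 1 or IP replicate 1, and 3 lower without TOTAL replicate 2 or 3 or IP replicate 3. INPUT against TOTAL stayed at 0 and 0. BO against INPUT gave 1 to 2 and 0 (8 to 11 and 1 to 2), with 2 higher without INPUT replicate 3 or BO replicate 3, and by adjusted p alone 8 higher without BO replicate 1 and 1 lower without INPUT replicate 3.

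With the replicate number as a block, the called counts were 0 and 5 for IP against BO, 1 and 1 for IP against INPUT, 0 and 2 for IP against TOTAL, 0 and 0 for INPUT against TOTAL, and 1 and 0 for BO against INPUT, the same as without it, and it changed no call of a named subfamily. A fit of INPUT and TOTAL alone with the block, chosen after seeing the data, also gave 0 and 0.

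Loci past the fold in IP against BO were 10 higher and 159 lower of 235 with a minimum of 5 (15.9% and 47.6% of all repeat loci), 1 and 3 of 6 with a minimum of 50 (20.6% and 52.2%), 8 and 34 of 79 when centred (30.5% and 26.9%), and 1 higher with a pseudocount of 5 (14.5%). Against INPUT they were 26 and 81 of 224 with a minimum of 5 (21.2% and 33.5%), and 1 and 0 of 5 with 50 (25.2% and 26.5%). Against TOTAL they were 27 and 44 of 181 with a minimum of 5 (22% and 24.7%), 2 and 0 of 5 with 50 (29.9% and 23.6%), and 10 lower with a pseudocount of 5 (18.7%). Low subfamilies are limited by depth: Tigger1a_Art and MERX rested on 5 to 13 reads in each IP library.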
